A study of Mus musculus with 71 samples.

Results

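The loops of 10 forkhead genes, many of them with known roles in mesenchyme, were examined in mouse synovial sarcoma (SyS). The genes were *Foxc1*, *Foxc2*, *Foxf1*, *Foxf2*, *Foxl1*, *Foxq1*, *Foxd1*, *Foxd2*, *Foxp1* and *Foxp2*. A loop was taken as a loop of a gene when an anchor lay within 2 kb of a transcription start site (TSS) of that gene in GENCODE vM21, and 56 of the 24244 loops in the list met this rule for the 10 of 55450 annotated genes. Chromatin conformation was measured by HiChIP with an antibody against H3K27ac, a histone mark of active promoters and enhancers, in 2 *hSS2* tumors. These mice carry human SS18::SSX2, a fusion gene of the kind that defines SyS. They express it in hindlimb tissue after injection of TATCre protein at day 8 of life. Both tumors share this genotype and treatment, and no control tissue was analysed here. Recombination followed the site of injection and not a cell type promoter, and whole tumors were dissociated, so vessels, immune cells and stroma of the host were included. Each loop has a count of paired-end tags (read pairs that join both anchors) and a false discovery rate (FDR), and the loop score of a promoter is the sum of the tags of its loops.

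Forkhead factors bind DNA through a winged helix domain, and many of them are switched on in restricted regions of the embryo. *Foxf1* and *Foxf2* act in gut and lung mesenchyme downstream of Hedgehog signals, *Foxc1* and *Foxc2* in mesoderm, vessels and skeleton, *Foxl1* marks stromal cells under the gut epithelium, and *Foxd1* marks stromal progenitors of the kidney. *Foxp1* and *Foxp2* mainly repress transcription, and enhancers of such developmental genes can lie far from the promoter.

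The list held 41574 tags, most loops rested on a single tag, and it ran through the genome in order and then again, as 2 parts with 28657 and 12917 tags. The parts were not assigned to tumors, there is no value per tumor, and no test between samples was possible. Intervals of sums are exact Poisson 95% intervals and those of shares Wilson 95% intervals, and both cover counting error only. Tags of the same loop were counted as independent, so intervals over tags can be too narrow. Of 5 markers of SyS cells (*Tle1*, *Zic1*, *Nnat*, *Penk* and *Epcam*) 3 had a loop, with 7 tags in all. Of 5 endothelial markers 2 had a loop, with 4 tags, 0 of 5 macrophage markers had one, 1 of 5 fibroblast markers (*Pdgfra*, with 41 tags) and 1 of 5 skeletal muscle markers, with 2 tags. A loop was listed at 45.8% of all protein-coding genes, so counts out of 5 markers do not show which cells contributed. A low score can come from fewer cells of a type or from fewer contacts per cell, and these cannot be told apart in bulk tumor.

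By loop score, *Foxf2*, *Foxp1* and *Foxq1*, at 2 loci, stood above the rest of the 10 genes. *Foxf2* had a loop score of 33 tags (22.7 to 46.3) in 11 loops, *Foxp1* 31 tags (21.1 to 44.0) in 19 loops, and *Foxq1* 29 tags (19.4 to 41.6) in 6 loops. The intervals of these 3 scores overlapped. The scores of *Foxq1* and *Foxf2* are not separate, because both count the loops of 18 and 3 tags that join these genes. With a window of 1 kb the *Foxq1* score was 6. *Foxc1* followed with 9 tags in 6 loops, *Foxd1* with 6 tags in 3 loops, *Foxl1* and *Foxp2* with 5 tags in 5 loops each, and *Foxf1* with 4 tags in 4 loops. The intervals of these neighbors in the order overlapped. *Foxc2* and *Foxd2* had no listed loop, a score of 0 with an interval of 0 to 3.69. This interval covers listed tags only, and contacts too weak to be listed are not counted.

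**Figure D1:**
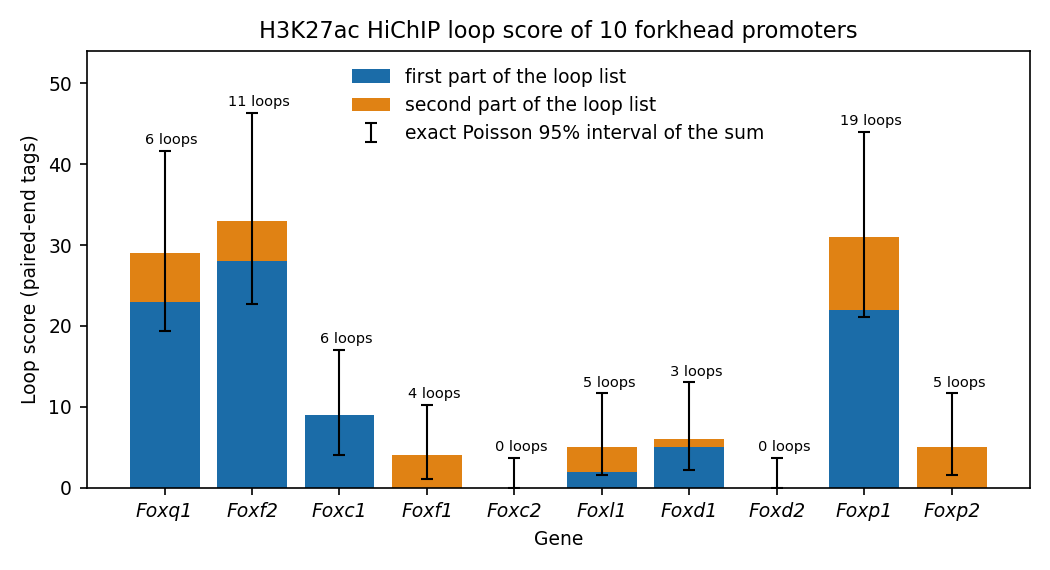
Loop score in paired-end tags of each of the 10 forkhead promoters, stacked by part of the loop list, with the exact Poisson 95% interval of each sum and the number of loops above it. *Foxf2*, *Foxp1* and *Foxq1* stand at 29 to 33 tags, the other 5 looped genes at 4 to 9, and *Foxc2* and *Foxd2* at 0.

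Of the 10 genes 8 had a loop, beside 45.8% of all protein-coding genes. A loop of at least 2 tags was found at 5 of them (*Foxq1*, *Foxf2*, *Foxc1*, *Foxd1* and *Foxp1*), beside 21.2% of protein-coding genes, and the same 5 had a loop with an FDR under 0.01, beside 17.5%. Both parts of the list had loops of *Foxq1*, *Foxf2*, *Foxl1*, *Foxd1* and *Foxp1*, 5 of 10, beside 24.3%. The 10 genes were chosen as a list with earlier results of these data known, so these shares are a description. Of 21951 protein-coding genes, 476 had a higher loop score than *Foxf2*, 522 a higher one than *Foxp1* and 584 a higher one than *Foxq1*, whereas 2397 scored above *Foxc1* and 3419 above *Foxd1*.

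Promoters with a loop of at least 2 tags and a RefSeq entry, and 1 distal anchor, are shown by sequence because they differ in CpG content, the dinucleotide that gathers in CpG islands at developmental promoters. The promoters are RefSeq sequences of GRCm38.p6 (250 bases before to 50 after the start, on the strand of the gene), and the anchor is 300 bases at the center of the distal anchor of *Foxd1*, described with that gene, on the plus strand of GRCm38. Capitals mark CpG.
Foxf2 promoter, chr13:31625566-31625865: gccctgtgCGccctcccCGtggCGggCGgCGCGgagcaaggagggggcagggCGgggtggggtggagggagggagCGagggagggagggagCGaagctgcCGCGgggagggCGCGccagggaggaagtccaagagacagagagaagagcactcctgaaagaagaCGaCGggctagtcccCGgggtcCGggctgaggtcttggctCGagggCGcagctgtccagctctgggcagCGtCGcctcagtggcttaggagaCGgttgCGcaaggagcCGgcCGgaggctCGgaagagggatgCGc
Foxc1 promoter, chr13:31806396-31806695: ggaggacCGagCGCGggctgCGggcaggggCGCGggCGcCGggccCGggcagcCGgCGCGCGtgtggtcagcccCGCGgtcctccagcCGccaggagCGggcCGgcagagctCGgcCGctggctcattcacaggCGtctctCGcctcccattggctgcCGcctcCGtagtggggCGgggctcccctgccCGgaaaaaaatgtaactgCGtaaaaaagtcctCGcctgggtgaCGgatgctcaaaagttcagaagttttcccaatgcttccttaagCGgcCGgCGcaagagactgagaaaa
Foxd1 promoter, chr13:98353995-98354294: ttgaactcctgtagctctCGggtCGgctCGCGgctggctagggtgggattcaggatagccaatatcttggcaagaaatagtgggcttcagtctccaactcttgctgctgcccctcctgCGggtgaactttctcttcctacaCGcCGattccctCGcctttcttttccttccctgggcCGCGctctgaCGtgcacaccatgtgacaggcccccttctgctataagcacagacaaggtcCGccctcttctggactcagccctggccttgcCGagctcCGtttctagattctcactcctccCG
Foxp1 promoter, first start, chr6:99520944-99521243, minus strand: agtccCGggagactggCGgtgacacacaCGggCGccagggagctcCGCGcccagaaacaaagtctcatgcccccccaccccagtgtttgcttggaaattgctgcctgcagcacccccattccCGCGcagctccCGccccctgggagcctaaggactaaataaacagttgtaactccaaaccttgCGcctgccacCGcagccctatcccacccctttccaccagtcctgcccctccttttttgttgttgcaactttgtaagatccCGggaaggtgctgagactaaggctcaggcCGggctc
Foxp1 promoter, start 256 kb into the gene, chr6:99266466-99266765, minus strand: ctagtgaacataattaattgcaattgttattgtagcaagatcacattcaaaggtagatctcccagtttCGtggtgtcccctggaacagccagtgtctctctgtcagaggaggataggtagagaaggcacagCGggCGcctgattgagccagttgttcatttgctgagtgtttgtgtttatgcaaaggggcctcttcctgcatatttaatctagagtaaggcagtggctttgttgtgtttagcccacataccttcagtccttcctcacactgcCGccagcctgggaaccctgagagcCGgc
Foxp1 promoter, start 494 kb into the gene, chr6:99028249-99028548, minus strand: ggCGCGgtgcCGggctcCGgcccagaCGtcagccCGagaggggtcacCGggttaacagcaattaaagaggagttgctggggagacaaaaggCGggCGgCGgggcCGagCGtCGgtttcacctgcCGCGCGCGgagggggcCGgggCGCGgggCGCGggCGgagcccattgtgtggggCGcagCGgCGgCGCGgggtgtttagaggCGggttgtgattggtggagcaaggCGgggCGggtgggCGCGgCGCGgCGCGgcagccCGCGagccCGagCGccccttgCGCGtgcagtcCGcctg
Foxd1 distal anchor, chr13:98573014-98573313: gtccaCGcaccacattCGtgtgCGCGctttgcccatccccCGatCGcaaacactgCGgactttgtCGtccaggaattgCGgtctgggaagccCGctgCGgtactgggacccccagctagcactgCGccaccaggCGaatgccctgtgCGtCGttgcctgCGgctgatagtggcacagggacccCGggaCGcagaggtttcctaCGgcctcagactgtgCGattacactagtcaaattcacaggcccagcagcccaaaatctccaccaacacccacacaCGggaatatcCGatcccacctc

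The *Foxf2* promoter held 27 CpG, *Foxc1* 32 and *Foxd1* 15. The *Foxp1* starts held 13 (labeled first start), 5 (256 kb into the gene) and 44 (494 kb into the gene). The median of 32851 RefSeq promoters of this length was 7. Of these promoters, 43.6% held no more CpG than the start 256 kb into the gene, and 98.1% no more than the one 494 kb into it. The *Foxp1* stretch labeled first start surrounds a RefSeq start. The first GENCODE start of *Foxp1*, at 99522721 in the same anchor, lies upstream of the printed bases. The 300 bases of the *Foxd1* distal anchor held 22 CpG, although no TSS lay near it. RefSeq promoters were matched for 5 of the 10 genes (*Foxf2*, *Foxc1*, *Foxd1*, *Foxd2* and *Foxp1*), and *Foxq1*, *Foxf1*, *Foxc2*, *Foxl1* and *Foxp2* were not matched.

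*Foxq1*, *Foxf2* and *Foxc1* are neighbors on chromosome 13 and are read in the same direction. *Foxq1* (ENSMUSG00000038415.10, chr13:31556134-31560976 in mm10) acts in hair and stomach, and its TSS lies 69.7 kb from that of *Foxf2* (ENSMUSG00000038402.2, chr13:31625816-31631403). *Foxc1* (ENSMUSG00000050295.4, chr13:31806633-31812476), a regulator of eye, skull and meninges, starts 181 kb beyond *Foxf2*. Together the 3 genes had 20 distinct loops with 48 tags (35.4 to 63.6). The first part of the list held 16 of these loops with 40 tags and the second 4 loops with 8 tags. This put 83.3% of tags in the first part (70.4 to 91.3), where all loops had 68.9% there. Of the 40 tags, 18 lay in 1 loop, so the tags are not independent and this interval is too narrow. No skew to the first part is read from it.

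Loops between the promoters of these 3 genes carried 23 of the 48 tags (47.9%). *Foxq1* was joined to *Foxf2* by 18 tags in the first part (span 67.2 kb, FDR 2.26e-08) and by 3 tags in the second (67.8 kb, FDR 0.0490). In the first part, 110 loops had a span within a factor of 1.2 of this one, with a median of 8 tags, and 2 of them, this loop included, reached 18 tags (1.82%). Within a factor of 1.5 it was 7 of 229 (3.06%). In the second part the loop stood at the lowest count listed among 32 loops of like span, whose median was 4. *Foxf2* was joined to *Foxc1* by 2 tags (181 kb, FDR 0.0375), also the lowest count listed at that span in the first part. No listed loop joined *Foxq1* to *Foxc1* directly.

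The anchor of *Foxq1* in the first part began 1485 bases downstream of the TSS, inside the gene, and in the second part it began 413 bases downstream. With a window of 1 kb in place of 2 kb the *Foxq1* score was therefore 6 tags and not 29. *A530084C06Rik*, a gene annotated as protein-coding that overlaps these anchors, had the same 6 loops as *Foxq1* (6 of 6), so the tags cannot be divided between them. The *Foxf2* anchor covered the TSS. It was shared with the lincRNA *1700018A04Rik*, which starts 24 bases from *Foxf2* on the other strand and had the same 11 of 11 loops, and with the miRNA gene *Gm27516*, 727 bases away. The noncoding gene *Gm11378*, between *Foxq1* and *Foxf2*, was reached from *Foxq1* by 3 tags in the second part (60.8 kb).

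**Figure D2:**
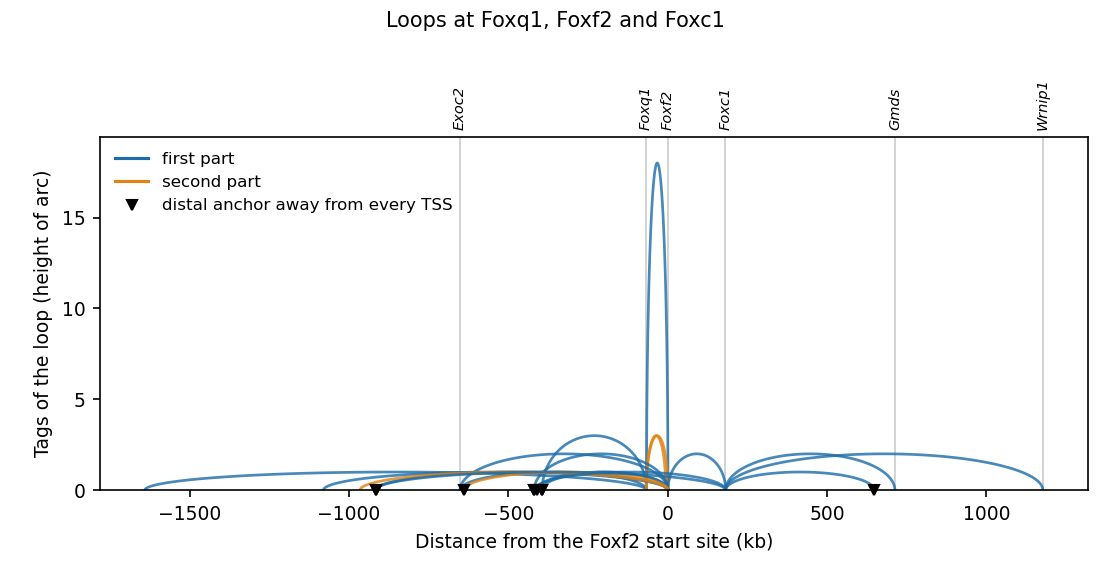
Loops of *Foxq1*, *Foxf2* and *Foxc1* drawn as arcs between anchor midpoints, with the distance from the *Foxf2* start site in kb on the horizontal axis and the tags of each loop as the height of its arc. The 18-tag loop between *Foxq1* and *Foxf2* stands far above the others, which have 1 to 3 tags, and black triangles mark distal anchors with no TSS within 2 kb.

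The *Foxf2* loops pointed to one side. Of its 11 loops 10 led upstream of the gene and 1, to *Foxc1*, downstream, whereas *Foxq1* and *Foxc1* each had 3 upstream and 3 downstream. Upstream of the 3 genes, 3 anchors with no TSS within 2 kb lay between 31205840 and 31232573 on chromosome 13. The most distant of these from *Foxf2* (chr13:31205840-31207403, intergenic, 6.75 kb from the nearest TSS) was joined to *Foxf2* by 2 tags (420 kb, FDR 0.00232) and to *Foxc1* by 1 tag (601 kb). The nearest (chr13:31230793-31232573, in *4930401O12Rik*, outside its exons) was joined to *Foxq1* by 3 tags (328 kb, FDR 1.56e-04) and to *Foxf2* by 1 tag (395 kb). The middle one (chr13:31214853-31217717) was joined to *Foxf2* alone, by 1 tag. All of these loops were in the first part of the list.

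Of the 3 anchors away from every TSS that were shared between these genes, 2 held in their central 2 kb the letters GTAAACA, the reverse complement of TGTTTAC, a core to which forkhead proteins bind. The third shared anchor, in the body of *Dusp22* (chr13:30706889-30710911), held them on neither strand there. The central 2 kb was taken around the midpoint, so for anchors narrower than 2 kb it includes flanking bases. The former 2 anchors were 1.564 and 1.781 kb wide, and the letters shown lay inside them. Sequence of the former 2 is shown to place these letters, as 300 bases around them on the plus strand of GRCm38, with the letters in capitals.
Foxf2 and Foxc1 shared distal anchor, chr13:31206186-31206485: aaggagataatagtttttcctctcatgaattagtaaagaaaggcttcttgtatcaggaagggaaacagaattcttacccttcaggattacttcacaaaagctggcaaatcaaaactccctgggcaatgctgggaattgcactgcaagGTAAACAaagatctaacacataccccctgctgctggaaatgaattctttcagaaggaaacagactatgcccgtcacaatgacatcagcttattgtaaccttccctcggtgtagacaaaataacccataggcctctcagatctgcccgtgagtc
Foxq1 and Foxf2 shared distal anchor, chr13:31231284-31231583: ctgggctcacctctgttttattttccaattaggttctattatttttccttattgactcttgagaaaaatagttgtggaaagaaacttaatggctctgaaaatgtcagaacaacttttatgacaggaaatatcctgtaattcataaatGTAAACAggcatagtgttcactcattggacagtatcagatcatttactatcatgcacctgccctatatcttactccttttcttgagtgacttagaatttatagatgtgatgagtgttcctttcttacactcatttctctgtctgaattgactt

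TGTTTAC or GTAAACA was present in the central 2 kb of 3 of the 5 anchors away from every TSS upstream of *Foxq1*, and of 3 of the 6 of the whole locus. Across the list, 20.3% of 16864 distinct anchors held it in their central 2 kb, as did 4 of 17 promoter anchors of the forkhead genes and 5 of their 22 distal anchors away from every TSS. None of the 7 RefSeq promoters of these genes held it, beside 3.65% of all RefSeq promoters. A match of letters is a description and not a binding site, and the shares over the forkhead anchors lay near that of all anchors. CpG differed more, with a median of 140 in the central 2 kb of promoter anchors, 22 in the distal anchors away from every TSS and 75 in all anchors.

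The remaining loops of at least 2 tags at the chromosome 13 locus reached promoters of other genes. *Exoc2*, a subunit of the exocyst complex, was joined to *Foxf2* by 2 tags (653 kb) and to *Foxq1* by 1 tag (585 kb), and its anchor also lay within 2 kb of a TSS of *Gm5447*. *Foxc1* was joined by 2 tags each to *Gmds*, an enzyme of fucose synthesis (531 kb, FDR 0.00142), and to *Wrnip1*, a replication-associated ATPase (995 kb, FDR 6.34e-04). The *Gmds* anchor also lay within 2 kb of a TSS of *A730091E23Rik* and the *Wrnip1* anchor one of *D930007J09Rik*, so the tags cannot be divided between these genes. The anchor in the body of *Dusp22* was joined to *Foxf2* and to *Foxc1* by 1 tag each. All 6 *Foxc1* loops were in the first part of the list, with 9 tags there. The second part listed 0, and weaker contacts may not have been listed.

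*Foxf1*, *Foxc2* and *Foxl1* form the corresponding cluster on chromosome 8, and its loops were few and weak. *Foxf1* (ENSMUSG00000042812.5, chr8:121084386-121088144), needed for lung and visceral mesenchyme, had 4 loops of 1 tag each, all in the second part. *Foxc2* (chr8:121116171-121118895), a regulator of lymphatic vessels, had none, and the nearest anchor of any loop lay 6.13 kb from its TSS. *Foxl1* (chr8:121127940-121130644) had 5 loops of 1 tag, 2 in the first part and 3 in the second. The locus as a whole had 9 loops with 9 tags (4.12 to 17.1). *Foxq1*, *Foxf2* and *Foxc1* had 48 tags (35.4 to 63.6). Of those 48 tags, 23 lay in loops between the promoters of that locus. The chromosome 8 promoters lie closer together, where weak contacts may not be listed. The totals are therefore not alike, and no difference between the loci is read from their intervals.

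No loop joined *Foxf1* to *Foxl1*, whose TSSs lie 43.6 kb apart. At a span within a factor of 1.2 of this distance, the lowest count among 104 loops of the first part was 7 tags and among 33 loops of the second part 3 tags, so weaker contacts at this distance may not have been listed. No loop of a single tag was listed under 109 kb, or under 344 kb in the first part. The nearest distal anchor of *Foxf1* lay 196 kb upstream and that of *Foxl1* 156 kb upstream, and neither had a TSS within 2 kb. The anchor of *Foxf1* was shared with *Fendrr*, a noncoding RNA of the lateral mesoderm that starts 1276 bases away on the other strand and had the same 4 of 4 loops, and with the miRNA gene *Gm27530*. The 2 loops of *Foxl1* in the first part came from an anchor that ended 1860 bases upstream of its TSS, while the anchor in the second part covered it.

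*Foxd1* (chr13:98354242-98359305) had 3 loops, all downstream of the gene, and 4 of its 6 tags were in 1 loop. This loop spanned 218 kb (FDR 6.89e-05) and ended in an intergenic anchor (chr13:98571640-98574688) 11.3 kb from the nearest TSS. Among 903 loops of like span in the first part, 138 had at least 4 tags (15.3%). *Foxd1* was the only promoter joined to this anchor in the list. The anchor held 106 CpG in its central 2 kb, the largest number among the 22 distal anchors of forkhead genes away from every TSS. The other 2 loops had 1 tag each and reached *Tnpo1*, which encodes a nuclear import receptor, at 536 and 572 kb. *Tnpo1* shared 2 of the 7 loops found at either gene.

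*Foxd2* (chr4:114906282-114908873), expressed in embryonic mesenchyme, had no loop, and the nearest anchor lay 30.6 kb from its TSS. *Foxd2os*, a noncoding gene that starts 384 bases away on the other strand, shares this promoter. The *Foxd2* promoter held 26 CpG, close to the 27 of *Foxf2*, which had 33 tags.

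*Foxp1* (chr6:98925338-99522721, minus strand, 597 kb long) has 22 TSSs, and its 19 loops used 6 stretches with a TSS of the gene. The anchor at the first start (chr6:99519793-99525104) had 10 loops with 20 tags, and the one 494 kb downstream, where 6 transcripts start (chr6:99025545-99030106), had 7 loops with 17 tags. The remaining 4 had 1 or 2 tags each, all in the second part of the list. All 11 *Foxp1* loops of the first part used at least 1 of the leading pair of anchors, and TSSs could be counted in any of 22 places, so its score is summed over more sequence than that of a gene with 1 TSS.

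The strongest *Foxp1* loop joined these leading starts to each other. It had 10 tags in the first part (495 kb, FDR listed as 0) and 1 tag in the second (494 kb, FDR 0.0119). Among 2818 loops of the first part with a span within a factor of 1.2, the median was 1 tag, and only this loop and 1 other had at least 10 (0.0710%). Within a factor of 1.5 it was 4 of 5574 (0.0718%). The loop alone made up 32.3% of the *Foxp1* loop score. A further internal loop of 1 tag in the second part joined the first start to an anchor with a TSS 593 kb downstream.

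**Figure D3:**
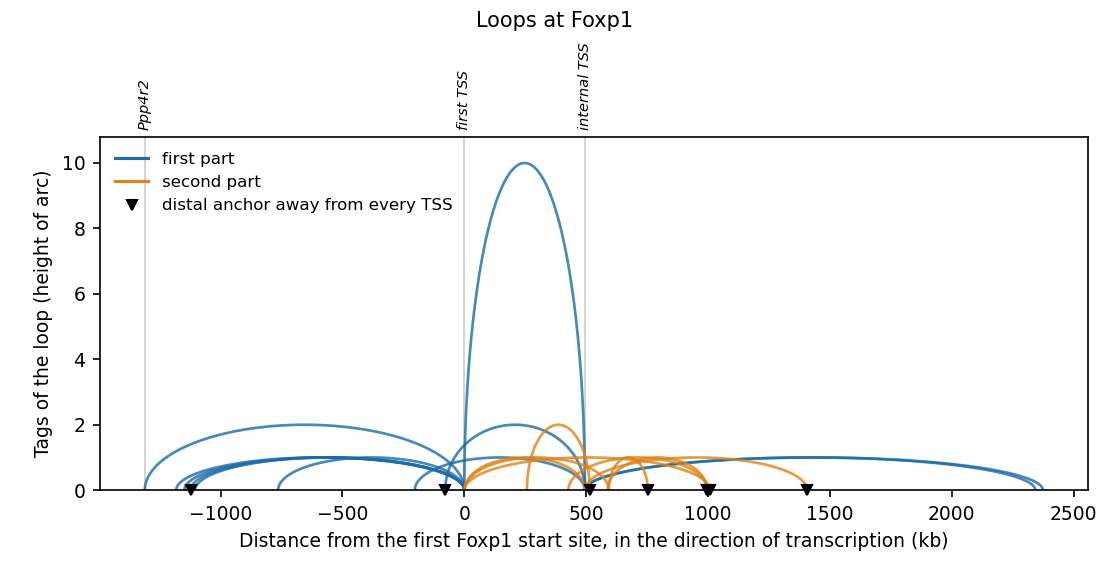
Loops of *Foxp1* drawn as arcs between anchor midpoints, with the distance from its first start site in kb, in the direction of transcription, on the horizontal axis and the tags of each loop as the height of its arc. The 10-tag loop joins the first and the internal start sites, and all other loops have 1 or 2 tags.

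Outside the gene, *Foxp1* reached *Ppp4r2*, a regulatory subunit of protein phosphatase 4, by 2 tags (1311 kb upstream, FDR 5.35e-04). The internal start was joined by 2 tags to an anchor with no TSS within 2 kb that lay upstream of the gene (chr6:99599566-99602017, 573 kb, FDR 0.00111), 23.7 kb from the nearest TSS. In the second part, the start 256 kb into the gene was joined by 2 tags to an anchor in the body of *Foxp1* (chr6:99006069-99009703, 258 kb, FDR 8.69e-04). That anchor lay 2.39 kb from the nearest *Foxp1* TSS, just outside the 2 kb window. The remaining loops had 1 tag.

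*Foxp2* (chr6:14901349-15441977), a relative of *Foxp1* best known for its role in speech and motor circuits, has 16 TSSs but loops at 1 anchor only, over its first start. Its 5 loops of 1 tag were all in the second part. The first part listed 0 tags, and weaker contacts may not have been listed. Of their distal anchors 4 had no TSS within 2 kb, and 2 of these were inside *Foxp2*, at 113 and 301 kb. The one at 301 kb lay 2.82 kb from a *Foxp2* TSS, just outside the window.

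A smaller share of the distal anchors of the forkhead genes lay at other genes than for looped promoters at large. Of their 50 distinct distal anchors 28 had a TSS of another gene within 2 kb (56%, 42.3 to 68.8), where 12137 of 15411 did for all looped promoters (78.8%, 78.1 to 79.4) and 72 of 98 for the other Fox genes (73.5%, 64.0 to 81.2). The share was 66.7% (47.8 to 81.4) in the first part of the list, beside 85.4% for all looped promoters there, and 43.5% (25.6 to 63.2) in the second, beside 75.3%. The interval for the forkhead genes stayed below the value for all looped promoters in both parts, but it overlapped that of the other Fox genes. The forkhead genes also had fewer neighbors. The 8 looped genes had a median of 3.5 other protein-coding genes within 500 kb (range 1 to 11), where looped protein-coding genes had 16 and the other looped Fox genes 14. The part of gene density in the difference was not tested.

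In span and tags the forkhead loops were like the list. Their 99 tags (80.5 to 120.5) were 0.238% of all tags. Single-tag loops made up 42 of 56 (75%, 62.3 to 84.5), beside 78.0% of all loops, and 11 of 56 had an FDR under 0.01 (19.6%, 11.3 to 31.8), beside 15.2%. Loops under 100 kb made up 5.36%, beside 5.13%. The median span was 621 kb, beside 500 kb, with a range of 60.8 to 1879 kb. The first part of the list held 69.7% of their tags (60.0 to 77.9), beside 68.9%. Of their loops 4 of 56 (7.14%) had a counterpart in the other part, with both anchors overlapping, beside 7.34% of all loops. These 4 were the pair that joins *Foxq1* to *Foxf2* and the pair that joins the starts of *Foxp1*.

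**Figure D4:**
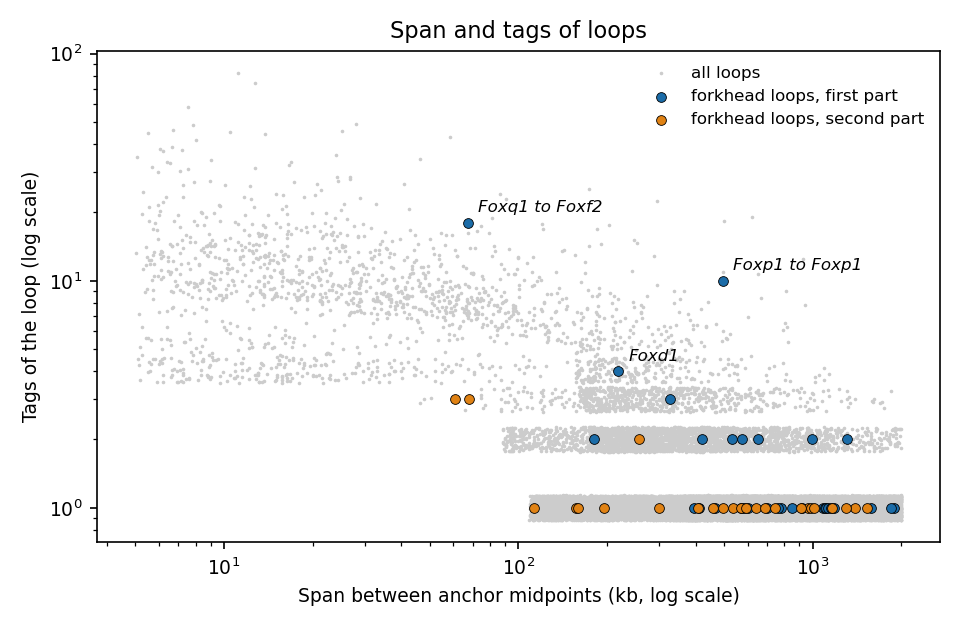
Span in kb and tags of every loop in the list (gray, spread slightly around each whole number of tags) and of the forkhead loops (colored by part of the list), both on log scales. The loops joining *Foxq1* to *Foxf2* (18 tags), *Foxp1* to itself (10 tags) and *Foxd1* to its distal anchor (4 tags) are labeled, and most forkhead loops lie at 1 tag.

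Across the family, 44 protein-coding genes carry a Fox symbol, and 19 of the 34 others had a loop (55.9%, 39.5 to 71.1). This stood beside 8 of the 10 and 45.8% of all protein-coding genes. At least 2 tags in a loop were found at 8 of the 34 others (23.5%), beside 21.2% of protein-coding genes. An FDR under 0.01 was found at 8 (23.5%), beside 17.5%, and loops in both parts at 12 (35.3%), beside 24.3%. The median loop score was 5.5 tags for the 10 genes, 1 for the other Fox genes and 0 for all protein-coding genes. Among looped genes alone it was 7.5, 4 and 4. The 10 genes were chosen with earlier results of these data known, so these medians and shares are a description. The highest scores of the family belonged to other members, *Foxp4*, a relative of *Foxp1* and *Foxp2*, with 49 tags and *Foxk1* with 37, ahead of *Foxf2*, *Foxp1* and *Foxq1*. *Foxo3*, a target of insulin signaling, had 22, *Foxj2* 17 and *Foxn3* 15.

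**Figure D5:**
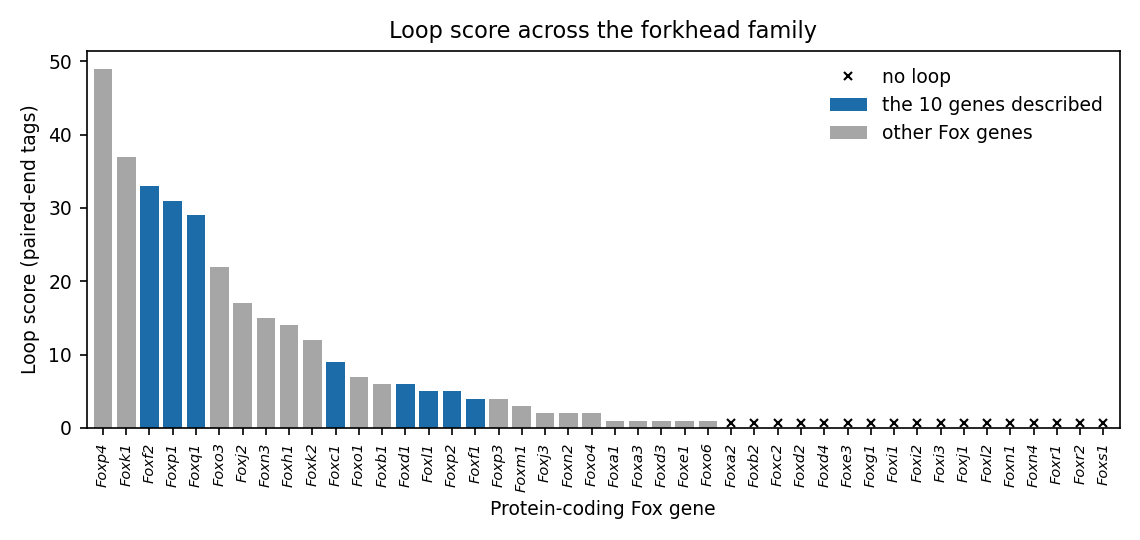
Loop score in paired-end tags of all 44 protein-coding Fox genes in descending order, with the 10 described genes in blue, the others in gray and a cross for each gene with no loop. *Foxp4* and *Foxk1* lead with 49 and 37 tags, and 17 genes have no loop.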

How the data were processed

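H3K27ac HiChIP was made from 2 *hSS2* mouse tumors. Cells of whole tumors were crosslinked, digested with MboI and ligated. The authors mapped the reads to mm10 with HiC-Pro and called loops with hichipper, and the methods give an FDR limit of 0.05. A figure legend gives instead another caller, Mango, and a limit of 0.01, with calling in each tumor ahead of merging. The list used here reaches an FDR of 0.0500, and 11 of the 56 forkhead loops have one under 0.01. For each loop the authors deposited the raw count of its paired-end tags. They also deposited an FDR per loop, which is an adjusted p-value. How tags were combined on merging is not given in the sources used here. The other samples of the series were not analysed here.

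Positions were converted to start at 1, and both parts of the list were used together. TSSs were those of all GENCODE vM21 transcripts, and a TSS was assigned to anchors that came within 2 kb of it on either side. The span was taken between anchor midpoints. A loop that joined 2 of the genes was counted once in totals. Loops of like span were those of the same part within a factor of 1.2, the loop itself included, with 1.5 as an alternative chosen after seeing the data. Sequence was read from GRCm38, and the central 2 kb of an anchor is the 2 kb around its midpoint, also where the anchor is narrower. With no value per tumor, shares and sums were set beside those of all genes or loops. The depth was 41574 tags in total, a median of 1 per loop, so single loops are known with low precision.

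The forkhead genes and marker lists were chosen with earlier results of these data known. Named genes were the 10, the 5 other Fox genes with the highest scores, genes at distal anchors joined by at least 2 tags, noncoding genes at the same promoters and genes with the most shared loops. The gene body *Dusp22*, the host gene *4930401O12Rik* and the printed anchors were chosen after the values were seen. Alternatives were windows of 1 and 5 kb, FDR under 0.01 and 0.001, at least 2 tags, RefSeq TSSs, protein-coding transcripts, each part alone, identical loops once, spans up to 1 Mb and anchors of 4 kb. The assignment was tested on simulated data, and all 408 loops planted at 200 promoters were assigned to their gene. Tables were handled with pandas 2.3.3 and numpy 2.4.6 in Python 3.11.15, intervals came from scipy 1.17.1 and figures from matplotlib 3.10.9.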

Additional observations from a re-analysis of the deposited data

How the results depend on the processing

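Window sizes, RefSeq TSSs, protein-coding transcripts, identical loops once, spans up to 1 Mb and anchors of 4 kb left the number of forkhead loops, their tags, the genes with a loop and both shares within 1.5 times or within the interval of the value reported. The share of distal anchors near another TSS stayed within its interval under all alternatives. Stricter loops removed most of the rest by construction. With an FDR under 0.01, 11 loops with 49 tags were left at 5 of the 10 genes and 8 other Fox genes, and 0% of them had a single tag. With an FDR under 0.001, 8 loops with 43 tags were left at 5 genes and 6 other Fox genes, again with 0% at a single tag. With at least 2 tags, 14 loops with 57 tags were left at 5 genes and 8 other Fox genes. The first part of the list alone held 31 loops with 69 tags, and the second 25 loops with 30 tags, of which 88% had a single tag. Of 120 recomputed scores of single genes, 96 stayed within the interval of the score and 24 moved. No paired analysis was possible because the list has no column per tumor, and for the same reason neither tumor could be left out. Most forkhead loops rest on 1 tag, so the depth limits any statement on a single loop, and the low scores of *Foxf1*, *Foxl1*, *Foxd1* and *Foxp2* cannot be ordered.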
